A study of Rattus norvegicus with 12 samples.

Results

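The 6 epithelial antimicrobial defense genes Lpo, Noxo1, Lcn2, Reg3b, Reg3g and Olfm4 were followed in the uterus of ovariectomized female Sprague-Dawley rats, out of 16493 gene symbols with a value. They were named as secreted or oxidant-producing defense genes of epithelium and were matched by symbol, and all 6 had a row in each of the 12 libraries. They were picked with their high levels in the estradiol libraries of this series already known. The differences between estradiol and vehicle are therefore given for these 6 genes as a description, without a test.

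The study had 4 diet and hormone groups with 3 libraries in each. SPI-E2 rats ate soy protein isolate and were infused with 17β-estradiol (E2) from a subcutaneous osmotic pump. CAS-E2 rats received the same E2 infusion on a diet with casein as the protein. SPI rats ate soy protein isolate and CAS rats ate casein, and pumps in these 2 groups delivered vehicle alone. All rats had lost their ovaries before the infusion, and uteri were taken at postnatal day 65. For each library, RNA of 2 uteri was pooled in equal amounts and poly-A RNA was then isolated, which makes 6 uteri a group, and the spreads given are those between pools. Libraries are named here by group and replicate number, as in SPI-E2 1. The libraries of a group shared a sequencing lane, so lane and group cannot be told apart.

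Mucosal epithelia keep microbes off their surface with secreted proteins. Peroxidases and NADPH oxidases act as a pair, since the oxidase supplies the hydrogen peroxide that the peroxidase turns into a microbicidal oxidant. Lipocalins withhold iron, lectins of the Reg3 family bind bacterial surfaces, and olfactomedin glycoproteins are shed into mucus. In the rodent uterus, estrogen makes the luminal and glandular epithelium grow and secrete, and lactoferrin is the classical secreted defense protein that estrogen induces in the mouse.

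The sequences just before the start sites of 4 of these genes are shown because they hold the motifs found within 100 bases of the start. They are from the RefSeq promoters of the GRCr8 rat assembly, in which all 6 genes were matched. Each runs for 100 bases up to the base before the start site, and capitals mark a TATA box (TATAAA) in Reg3b, Reg3g and Lpo and an estrogen response half-site (GGTCA) in Olfm4.
Reg3b, chr4:112419676-112419775, plus strand: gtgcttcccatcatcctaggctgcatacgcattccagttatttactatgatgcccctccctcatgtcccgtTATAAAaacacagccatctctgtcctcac
Reg3g, chr4:112484739-112484838, minus strand: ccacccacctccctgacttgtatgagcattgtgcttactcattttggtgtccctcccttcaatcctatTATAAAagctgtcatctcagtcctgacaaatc
Lpo, chr10:73123457-73123556, minus strand: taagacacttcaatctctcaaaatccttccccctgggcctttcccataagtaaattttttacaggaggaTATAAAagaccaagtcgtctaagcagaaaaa
Olfm4, chr15:61816131-61816230, plus strand: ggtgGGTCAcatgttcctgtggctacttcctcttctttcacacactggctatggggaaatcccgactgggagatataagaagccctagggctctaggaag

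Within 250 bases before the start site, on either strand, TATAAA was found in 3 of the 6 genes and in 12.9% of all 33469 rat promoter windows. It began 29 bases before the start in Reg3b, 32 in Reg3g and 31 in Lpo. The half-site GGTCA was found in 1 of the 6 genes and in 35.4% of all windows. Olfm4 held 3 copies, at 169, 112 and 96 bases before the start, of which the copy at 112 was on the minus strand. The full palindrome GGTCANNNTGACC, which contains the half-site, was in none of the 6 windows and in 0.0239% of all windows. TTGCNNAA, a C/EBP-type motif, was found in Lcn2 alone of the 6, 191 bases before the start, and in 9.22% of all windows. TTCNNNGAA, a STAT-type motif, was found in Reg3b alone of the 6, 129 bases before the start, and in 7.67% of all windows. When the 100-base stretches of the 6 genes were aligned in pairs with free ends, Reg3b and Reg3g shared 62 bases, while the other 14 pairs shared 37 to 56. In the annotation used here, the start of the Noxo1 window lies inside the gene, so that window may not be its main promoter.

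Levels are given as FPKM, which scales the reads of a transcript to its length and to the mapped reads of its library, so that levels of different genes can be set side by side. The files imply 6353210 to 9862180 mapped reads a library, and the median of the groups lay between 7266041 and 9518294. The reads behind each gene were recovered from its deposited coverage and its length. Genes that reached 1 FPKM in 3 or more libraries were tested, 10279 in all. All 6 were among them, and Noxo1, Reg3b, Reg3g and Olfm4 passed that filter through the E2 libraries alone. Differences were estimated with limma on log2(FPKM + 1), a scale that understates the change of low genes. A gene was called at a Benjamini-Hochberg adjusted p under 0.05 over all genes tested together with at least a 2-fold difference on that scale.

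Lpo encodes lactoperoxidase, a secreted heme peroxidase of milk, saliva and airway mucus that oxidizes thiocyanate with hydrogen peroxide. Its transcript of 2930 bases in 13 exons lies on the minus strand at chr10:76099137-76118724 of the rn4 assembly, which the deposited coordinates use. Lpo had 134, 306 and 405 FPKM in SPI-E2 1 to 3, against 1.30, 0.424 and 2.92 FPKM in SPI 1 to 3. It had 208, 229 and 331 FPKM in CAS-E2 1 to 3, against 1.53, 0.669 and 0.692 FPKM in CAS 1 to 3. Every E2 library lay far above every vehicle library, and the E2 libraries of the diets overlapped. From pooled reads, 18423 in SPI-E2 and 115 in SPI, the level was 179 times that of SPI, with an exact 95% counting interval of 149 to 217. The 15952 reads of CAS-E2 and the 61 of CAS put it at 267 times CAS, with an interval of 208 to 349. These intervals cover counting error only.

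Noxo1 encodes NADPH oxidase organizer 1, the scaffold that assembles the epithelial oxidase Nox1 at the membrane. It has 8 exons and a transcript of 1965 bases on the plus strand at chr10:13949293-13953880, on the same chromosome as Lpo. Noxo1 had 3.75, 13.1 and 13.9 FPKM in SPI-E2 libraries, against 0.299, 0 and 0.235 FPKM in SPI libraries. It had 5.86, 8.57 and 20.8 FPKM in CAS-E2 libraries, against 0.153, 0.115 and 0 FPKM in CAS libraries. Groups with and without E2 did not overlap, although the level was low next to that of Lpo. The vehicle values rested on 8 reads in SPI and 4 reads in CAS. The pooled level was 61.5 times that of SPI in SPI-E2 (30.9 to 143) and 118 times that of CAS in CAS-E2 (45.7 to 434).

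Lcn2 encodes lipocalin 2, which binds the siderophores with which bacteria take up iron. It lies on the minus strand at chr3:11511402-11514747, with 6 exons and a transcript of 874 bases. Lcn2 had 76.7, 207 and 251 FPKM in SPI-E2 libraries, against 3.92, 2.66 and 6.31 FPKM in SPI libraries. It had 148, 125 and 784 FPKM in CAS-E2 libraries, against 4.40, 2.57 and 2.81 FPKM in CAS libraries. Lcn2 was the gene of the 6 with the highest level without E2, and CAS-E2 3 stood apart from the other CAS-E2 libraries, at 5.75 times their mean. Pooled reads gave 41.4 times the level of SPI in SPI-E2 (33.1 to 52.5) and 101 times the level of CAS in CAS-E2 (76.8 to 136).

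Reg3b and Reg3g encode secreted C-type lectins of intestinal and pancreatic epithelium, and Reg3g kills Gram-positive bacteria in the mouse gut. They are close paralogs, and 36-base reads that match both may have been divided between them, so their separate levels are uncertain. In rn4 they face each other at the ends of a 65-kb cluster, with Reg3b on the plus strand at chr4:112355773-112359011 and Reg3g on the minus strand at chr4:112418258-112420813. Reg3b had 2.80, 4.98 and 10.1 FPKM in SPI-E2 libraries, against 0, 0 and 0.179 FPKM in SPI libraries. It had 7.14, 10.4 and 14.8 FPKM in CAS-E2 libraries and no read in any CAS library. The 143 reads in CAS-E2 set its level at least 48.6-fold higher than a floor of 3 reads over the CAS group. In SPI the gene had 1 read, and the ratio of SPI-E2 to SPI, 89.2, had a counting interval of 15.6 to 3569.

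Reg3g was the more abundant of the pair in every E2 library. It had 8.99, 27.2 and 35.7 FPKM in SPI-E2 libraries, against 0.231, 0 and 0.544 FPKM in SPI libraries. It had 15.9, 29.3 and 38.2 FPKM in CAS-E2 libraries and no read in CAS, which put CAS-E2 at least 125-fold higher than the same floor over the CAS group. SPI held 4 Reg3g reads, and SPI-E2 was 91.8 times SPI, with a counting interval of 35.5 to 339. The ratio of Reg3g to Reg3b was 3.21, 5.47 and 3.55 in SPI-E2 libraries and 2.23, 2.82 and 2.59 in CAS-E2 libraries. These ranges did not overlap, and the ratio was looked at after the values were seen, so no test was made of it.

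Of the other Reg genes in the same cluster, Reg3a and Reg1a lie between Reg3b and Reg3g. Reg3a was at 0, 0.176 and 0 FPKM in SPI-E2 libraries, 0, 0.187 and 0 FPKM in CAS-E2 libraries and 0 in all vehicle libraries. Reg1a was at 0 in 11 of 12 libraries and at 0.194 FPKM in CAS-E2 2. The high levels in E2 libraries were thus measured at the ends of the cluster and not at the annotated genes between them.

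Olfm4 encodes olfactomedin 4, a secreted glycoprotein of intestinal crypt epithelium that is also found in granules of some neutrophils. It lies on the plus strand at chr15:61267802-61290288, with 5 exons and a transcript of 2731 bases. Olfm4 had 37.7, 108 and 117 FPKM in SPI-E2 libraries, against 0.573, 0.208 and 0.859 FPKM in SPI libraries. It had 69.1, 95.5 and 103 FPKM in CAS-E2 libraries, against 0.532, 0.160 and 0.498 FPKM in CAS libraries. The CAS-E2 libraries lay within the range of the SPI-E2 libraries, and no vehicle library reached 1 FPKM. Pooled reads gave 163 times the level of SPI in SPI-E2 (118 to 231) and 243 times the level of CAS in CAS-E2 (160 to 388).

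**Figure D1:**
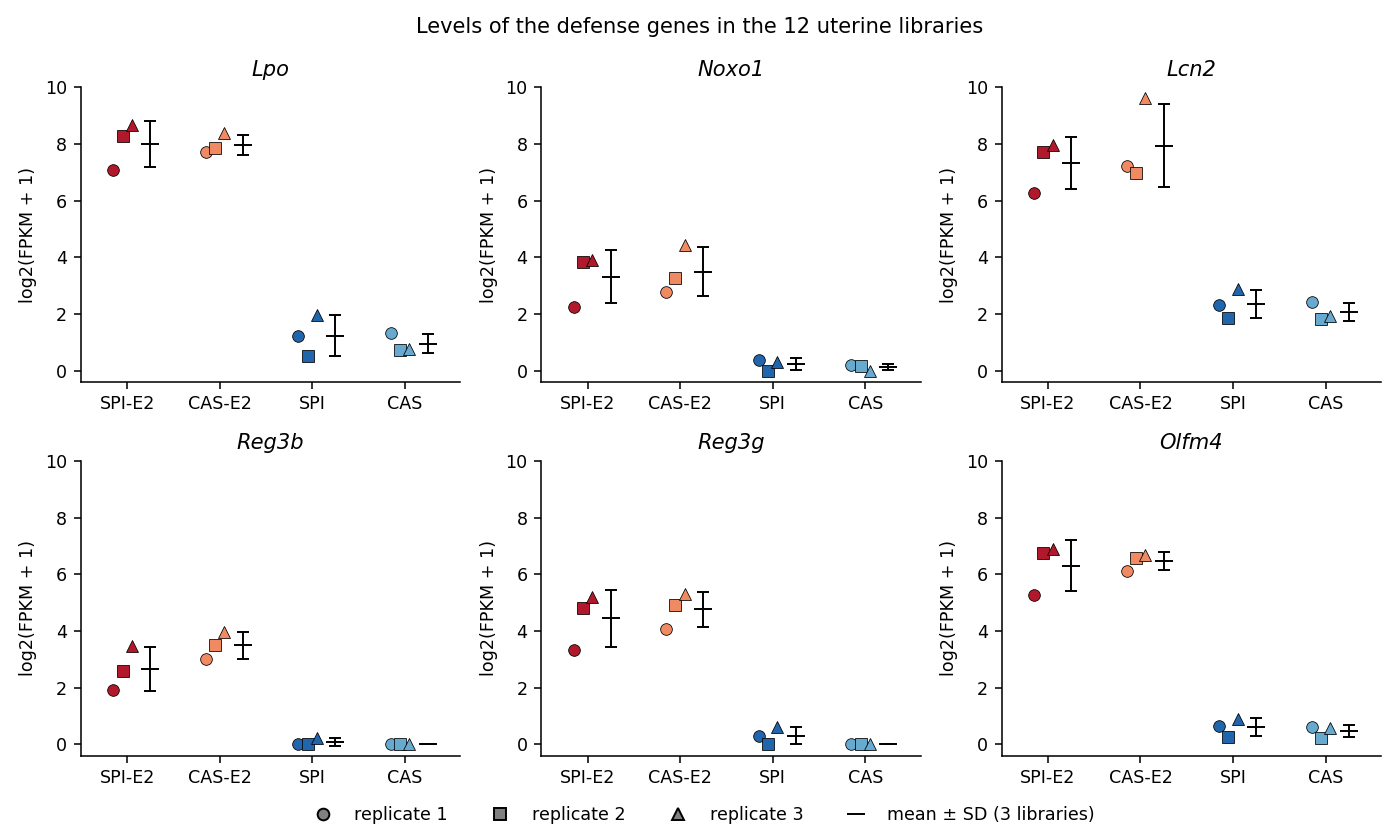
Levels of the 6 genes as log2(FPKM + 1) on the vertical axis, with the groups SPI-E2, CAS-E2, SPI and CAS on the horizontal axis, 1 symbol per library and the mean ± SD of 3 libraries beside it. In every panel the 6 E2 libraries sit above the 6 vehicle libraries, and Lcn2 in CAS-E2 3, at 784 FPKM, is the highest value of the set.

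Ranked by mean FPKM within SPI-E2, the genes ran Lpo at 282 ± 137, Lcn2 at 178 ± 90.6, Olfm4 at 87.6 ± 43.5, Reg3g at 24.0 ± 13.6, Noxo1 at 10.2 ± 5.62 and Reg3b at 5.94 ± 3.72 (SD, n = 3 libraries). In CAS-E2 the order was Lcn2 at 352 ± 374, Lpo at 256 ± 65.8, Olfm4 at 89.1 ± 17.7, Reg3g at 27.8 ± 11.2, Noxo1 at 11.7 ± 7.97 and Reg3b at 10.8 ± 3.83. Olfm4 and Reg3g were the neighbours whose libraries did not overlap in either E2 group, and in CAS-E2 the ranges of Lpo and Olfm4 were also apart. In SPI all neighbours overlapped, in the order Lcn2, Lpo, Olfm4, Reg3g, Noxo1 and Reg3b. In CAS the order was Lcn2, Lpo, Olfm4 and Noxo1, each apart from the next, with Reg3b and Reg3g at 0, as Noxo1 was in CAS 3.

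On the log2(FPKM + 1) scale the estimated differences of SPI-E2 minus SPI were 6.77 for Lpo, 5.70 for Olfm4, 4.97 for Lcn2, 4.14 for Reg3g, 3.09 for Noxo1 and 2.58 for Reg3b. The differences of CAS-E2 minus CAS were 7.03 for Lpo, 6.00 for Olfm4, 5.87 for Lcn2, 4.77 for Reg3g, 3.37 for Noxo1 and 3.51 for Reg3b. Their standard errors were the same in both diets, from 0.33 for Reg3b to 0.62 for Lcn2. Over all genes, limma called 8.39% of those tested higher and 1.86% lower in SPI-E2 than in SPI. Against CAS, it called 7.99% higher and 6.37% lower in the CAS-E2 libraries. Since the genes were picked on these differences, nothing is read from how they stand in those shares. In these pooled tissues, more epithelial cells and more RNA per epithelial cell cannot be told apart.

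The diets were compared with and without E2, which asks whether soy protein isolate itself, or soy together with E2, gave other levels than casein. These comparisons use the same libraries as those on which the genes were picked. In SPI minus CAS, limma did not call Lpo or Lcn2, at adjusted p-values of 0.794 and 0.868. Olfm4 was not called either, at 0.890, but all its vehicle libraries were under 1 FPKM. A 2-fold diet difference in Olfm4 was therefore hardly reachable on the log2(FPKM + 1) scale. Noxo1, Reg3b and Reg3g had 0 to 8 reads in each of these groups and were not called either, and a diet difference in them was not detectable at this depth. The estimated differences were 0.31 for Reg3g, 0.28 for Lpo, 0.28 for Lcn2, 0.14 for Olfm4, 0.11 for Noxo1 and 0.08 for Reg3b. The 95% interval of Lpo ran from -0.63 to 1.20, and that of Lcn2 from -1.07 to 1.64. In this comparison 0.0195% of all genes were called, and 1319 genes had an unadjusted p under 0.05. Libraries of SPI overlapped those of CAS for all 6 genes, while they did not overlap for 32.8% of all genes tested, a share that the genes with few reads could hardly enter.

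In SPI-E2 minus CAS-E2 the difference was 0.03 for Lpo, with a 95% interval of -0.89 to 0.94. It was -0.16 for Olfm4 (-0.95 to 0.62), -0.18 for Noxo1 (-1.15 to 0.79) and -0.32 for Reg3g (-1.24 to 0.60). For Lcn2 it was -0.62 (-1.97 to 0.74), and CAS-E2 3 weighed on it, since without that library it was 0.22. Reg3b had the largest difference, -0.85 with a standard error of 0.33 and an interval of -1.56 to -0.13, at an unadjusted p of 0.0238 and an adjusted p of 0.766 by limma. None of the 6 genes was called, with adjusted p-values up to 1.00 for Lpo. Over all genes 0.00973% were called and 601 had an unadjusted p under 0.05. The libraries of SPI-E2 and CAS-E2 overlapped for all 6 genes, and for all but 6.99% of the genes tested. Between libraries with the same replicate number, SPI-E2 was the lower in 3 of 3 pairs for Reg3b and Reg3g, in 2 of 3 for Noxo1 and Lcn2 and in 1 of 3 for Lpo and Olfm4. With replicate number as a block, the adjusted p of Reg3b was 0.511 by limma and that of Reg3g 0.926. The unblocked intervals leave room for a difference of 2-fold or more in Lcn2, Reg3b, Reg3g and Noxo1.

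The E2 effect in SPI minus that in CAS was below 0 for all 6 genes, from -0.26 for Lpo to -0.93 for Reg3b. The 6 genes share the same pools, so their common sign is not a set of separate results. Without SPI-E2 1 it was 0.21 for Lpo, 0.25 for Noxo1 and 0.22 for Olfm4. For Lcn2, Reg3b and Reg3g it stayed below 0 without each library in turn. The limma interaction term called none of them, with adjusted p-values of 0.371 for Reg3b up to 0.864 for Lpo. It called 0% of all genes, 1530 of which had an unadjusted p under 0.05, none of the 6 among them. The interval for Reg3b ran from -1.94 to 0.08 and that for Lcn2 from -2.81 to 1.02.

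**Figure D2:**
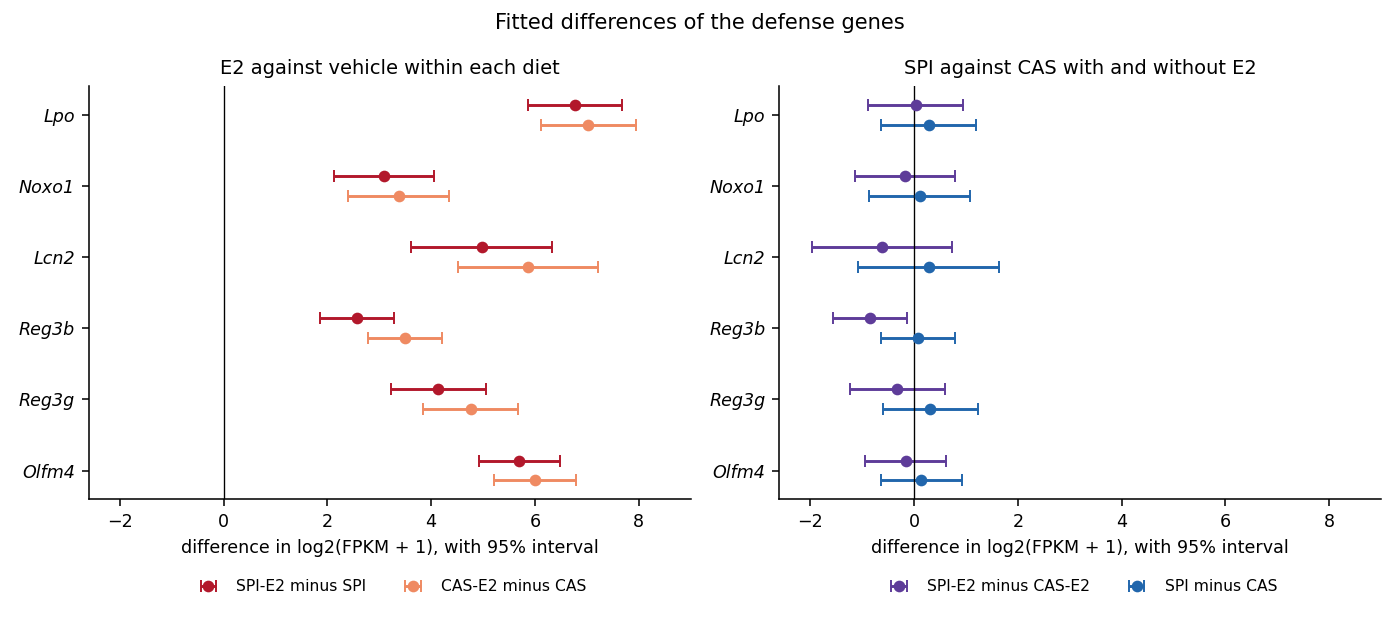
Fitted differences in log2(FPKM + 1) on the horizontal axis for the 6 genes, with 95% intervals as bars. The left panel gives SPI-E2 minus SPI and CAS-E2 minus CAS, a description of the differences on which the genes were picked. The right panel gives SPI-E2 minus CAS-E2 and SPI minus CAS, where the points lie between -0.85 (Reg3b) and 0.31 (Reg3g) and all intervals but that of Reg3b under E2 span 0.

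The pools of an E2 group differed from each other in the same order for nearly all 6 genes. SPI-E2 1 was the lowest SPI-E2 library in 6 of 6 genes, and 41.6% of all genes tested were lowest there. SPI-E2 3 was the highest in 6 of 6, against 17.8% of all genes. CAS-E2 3 was the highest CAS-E2 library in 6 of 6 genes, against 30.1% of all genes, and CAS-E2 1 was the lowest in 5 of 6, with Lcn2 as the exception. SPI-E2 1 stood at 0.377 of the mean of SPI-E2 2 and 3 for Lpo, 0.372 for Reg3b, 0.335 for Olfm4, 0.335 for Lcn2, 0.286 for Reg3g and 0.279 for Noxo1. CAS-E2 3 stood at 5.75 times the mean of CAS-E2 1 and 2 for Lcn2 and 2.89 times for Noxo1, and between 1.25 times (Olfm4) and 1.69 times (Reg3g) for the others.

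General epithelial genes followed a similar course. The geometric mean of 11 epithelial markers, among them Epcam, Cdh1, Krt8 and Krt19, was 30.6, 88.1 and 92.1 FPKM in SPI-E2 libraries, against 12.1, 9.90 and 11.01 FPKM in SPI libraries. It was 47.4, 54.1 and 72.3 FPKM in CAS-E2 libraries, against 17.5, 15.96 and 17.1 FPKM in CAS libraries. SPI-E2 1 stood at 0.339 of the mean of the other SPI-E2 libraries for these markers, close to its 0.335 for Olfm4 and Lcn2. CAS-E2 3 stood at 1.42 times the mean of the other CAS-E2 libraries, well under its 5.75 for Lcn2. By limma, 11 of 11 tested epithelial markers rose in SPI-E2 over SPI and 9 of 11 in CAS-E2 over CAS, where the shares over all genes were 8.39% and 7.99%. Keratin 19 (Krt19), among the markers with larger rises, had 207, 802 and 789 FPKM in SPI-E2 libraries, against 34.0, 28.01 and 31.9 FPKM in SPI libraries. Differences of the markers ran from 1.19 (Esrp1) to 4.22 (Elf3) in SPI-E2 minus SPI. In CAS-E2 minus CAS they ran from -0.44 (Cldn4) to 3.89 (Elf3), so the marker mean mixes large rises with small ones and a negative value. Cldn3 of the marker list was at 0 in every library.

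Set against these markers in the same library, the 6 defense genes were still above their vehicle levels, by gaps that differed between genes. This again describes the differences on which the genes were picked. Lpo was 4.39, 3.48 and 4.40 times the epithelial mean in SPI-E2 libraries, against 0.108, 0.0428 and 0.265 times in SPI libraries. It was 4.38, 4.24 and 4.58 times that mean in CAS-E2 libraries, against 0.0871, 0.0419 and 0.0405 times in CAS libraries. The spread of Lpo between E2 pools nearly closed on this scale, as did that of Olfm4, which stood at 1.23, 1.22 and 1.28 times the epithelial mean in SPI-E2 libraries and at 1.46, 1.76 and 1.42 times in CAS-E2 libraries. Lcn2 kept its outlying pool, with 2.51, 2.35 and 2.72 times the mean in SPI-E2 libraries and 3.12, 2.30 and 10.8 times in CAS-E2 libraries. Its gap to vehicle was narrower than that of Lpo, with up to 0.573 times in SPI libraries and 0.251 times in CAS libraries. Noxo1 was at 0.123 to 0.151 times in SPI-E2 libraries, against up to 0.0247 times in SPI libraries. Reg3b relative to the markers was 0.0915, 0.0565 and 0.109 in SPI-E2 libraries and 0.151, 0.192 and 0.204 in CAS-E2 libraries. On this scale the E2 libraries of the diets were apart for both Olfm4 and Reg3b. The share of all genes apart on it is not given, so nothing is read from that. A refit after dividing by the epithelial mean, chosen after the data were seen, gave SPI-E2 minus CAS-E2 as -0.30 for Olfm4 and -0.86 for Reg3b, each at an adjusted p of 1.00 by limma. The same refit gave differences of SPI-E2 minus SPI from 1.58 for Reg3b to 4.78 for Lpo and of CAS-E2 minus CAS from 2.42 for Noxo1 to 5.63 for Lpo. Whether the epithelial share of the tissue set the levels was not tested beyond these values.

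**Figure D3:**
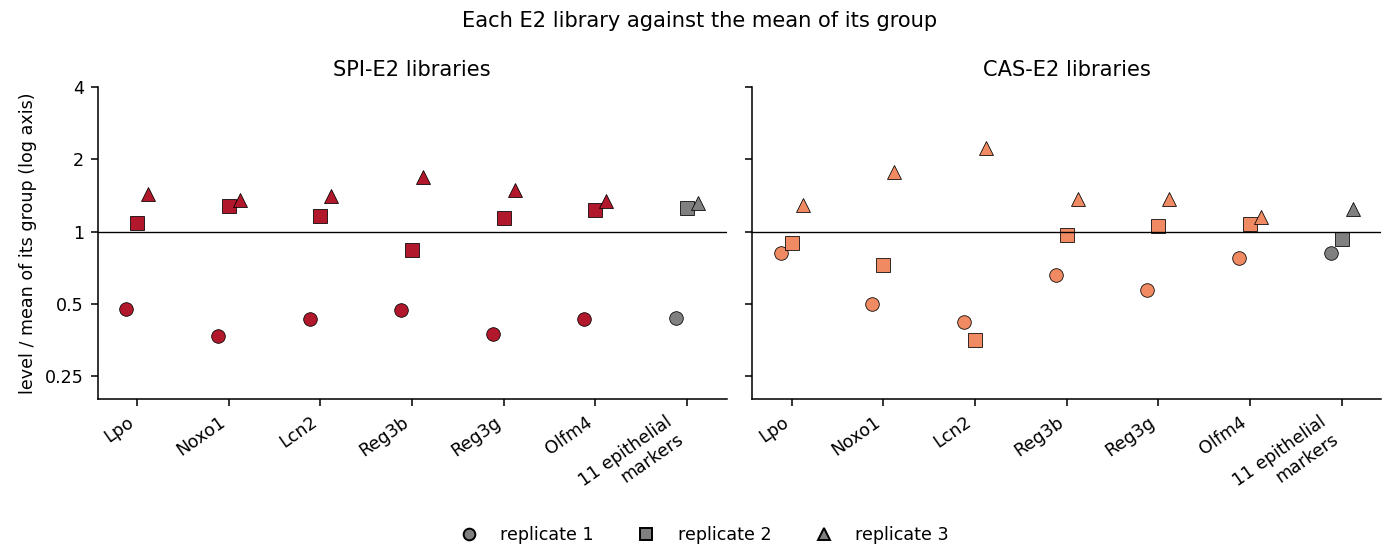
Level of each gene in each E2 library divided by the mean of its group, on a log2-spaced vertical axis, with the geometric mean of 11 epithelial markers at the right. Within SPI-E2, library 1 is the lowest for all 6 genes and for the markers, and within CAS-E2, library 3 is the highest for all of them, by the widest margin for Lcn2.

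Markers of cells other than epithelium also moved with E2. The 13 neutrophil markers with a row summed to 8.70 to 24.3 FPKM in SPI-E2 libraries, against 7.16 to 9.003 FPKM in SPI libraries. They summed to 18.3 to 56.6 FPKM in CAS-E2 libraries, against 2.22 to 4.14 FPKM in CAS libraries, and were highest in CAS-E2 3, the library with the highest Lcn2. Most of that sum was S100a9, a calcium-binding protein of neutrophils and of stressed epithelium, at 39.9 FPKM in CAS-E2 3. S100a8 averaged 3.44 FPKM in SPI-E2, 9.28 in CAS-E2, 1.62 in SPI and 0.845 in CAS. The receptor gene Csf3r averaged 0.330 FPKM in SPI-E2, 1.25 in CAS-E2, 0.238 in SPI and 0.178 in CAS. For Cxcr2 the means were 0, 0.304, 0.258 and 0 FPKM in the same order. Of the granule genes, Fcnb had 0.292, 4.23 and 1.26 FPKM in SPI-E2 libraries, against 0.142, 0.227 and 0.335 FPKM in SPI libraries. It had 3.27, 3.55 and 0.638 FPKM in CAS-E2 libraries, against 0, 0.110 and 0.340 FPKM in CAS libraries. Fcnb passed the filter through the E2 libraries alone, so its rise in CAS is a description. Elane reached at most 0.586 FPKM and Mmp8 at most 0.172 FPKM in an E2 library. Ctsg and Ngp were at 0 in all E2 libraries, and Np4 and RatNP-3b in all 12 libraries. Of 5 neutrophil markers tested, 3 rose in CAS-E2 over CAS, and in SPI-E2 over SPI 1 rose and 1 fell. Over all genes, 7.99% rose in CAS-E2 over CAS, and 8.39% rose and 1.86% fell in SPI-E2 over SPI. Fcnb and Csf3r entered the 5 through E2 libraries alone and Mpo, the one that fell, through vehicle libraries alone. These counts are therefore descriptions. The 7 macrophage markers with a row summed to 72.4 to 131 FPKM in SPI-E2 libraries, against 50.7 to 83.2 FPKM in SPI libraries, and to 151 to 179 FPKM in CAS-E2 libraries, against 48.6 to 57.1 FPKM in CAS libraries. Of 5 tested, 1 rose in SPI-E2 over SPI and 3 in CAS-E2 over CAS. Eosinophil markers summed to less than 1 FPKM in every library, and none passed the filter. The part of these cells in the levels of Lcn2 and Olfm4 was not tested.

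The wider mucosal defense programme was read from 85 other symbols in 3 lists, of which 76 had a row and 42 passed the filter. In SPI-E2 minus SPI, 12 of 42 rose and 4 fell, against 8.39% and 1.86% of all genes, and the median difference was 0.66 against 0.11 over all genes. In CAS-E2 minus CAS, 19 of 42 rose and 2 fell, against 7.99% and 6.37% of all genes, and the median difference was 0.76 against -0.07. None of the 42 was called in SPI minus CAS, in SPI-E2 minus CAS-E2 or in the interaction. The lists were written with results of these data known, so these shares are descriptions. Some of the 42, Noxa1, Il1b and Spink5 among them, passed the filter through the E2 libraries alone. Tlr2 passed it only with the help of E2 libraries, and Mpo passed it through vehicle libraries alone. Scaled to the epithelial markers, 2 rose and 28 fell in SPI-E2 over SPI, and 4 rose and 18 fell in CAS-E2 over CAS. The marker mean itself rose with E2, so a gene that rose less than it falls on that scale. The share over all genes is not given for it, so the counts on that scale are not read as a trait of the list. The 6 genes described here were still higher with E2, and so were Dmbt1, by 2.85 in SPI and 3.87 in CAS, and Slpi, by 1.18 in SPI and 3.35 in CAS. Rises named below that lost their call on it were those of Tlr2 in both diets, Cxcl17 and Ncf4 in SPI, and Rac2, Il1b and Ncf1 in CAS. Slc26a4 and Il10rb in both diets and Cyba and Cebpb in SPI, all named below as rises, took negative values.

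Among secreted factors, 5 of 14 rose and 1 fell in SPI-E2 over SPI, and 7 of 14 rose and none fell in CAS-E2 over CAS. Over all genes, 8.39% rose and 1.86% fell in SPI-E2 over SPI, and 7.99% and 6.37% in CAS-E2 over CAS. These shares also hold for the lists below. Lyz2 and Lyc2, both counted among the rises in CAS, overlap at a locus in the annotation, so they may be the same signal. Spink5 rose in both diets but passed the filter through the E2 libraries alone. Dmbt1, a scavenger receptor glycoprotein that aggregates bacteria, had 105, 683 and 534 FPKM in SPI-E2 libraries, against 7.42, 6.53 and 9.88 FPKM in SPI libraries. It had 324, 355 and 521 FPKM in CAS-E2 libraries, against 9.42, 6.45 and 6.51 FPKM in CAS libraries. Its differences of 5.26 in SPI and 5.55 in CAS (SE 0.53) had adjusted p-values of 0.000162 and 8.12e-05 by limma, and they fell between those of Lcn2 and Olfm4 in SPI. Slpi, a secreted inhibitor of neutrophil proteases, rose by 3.55 in SPI-E2 over SPI and by 4.97 in CAS-E2 over CAS (SE 0.68, limma adjusted p 0.00393 and 0.000481). Like Lcn2 it was highest in CAS-E2 3, with 82.1, 129 and 435 FPKM in CAS-E2 libraries, against 5.26, 7.93 and 1.76 FPKM in CAS libraries. Cxcl17, a mucosal chemokine, rose by 2.87 in SPI-E2 over SPI and by 2.58 in CAS-E2 over CAS.

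Pla2g2a, a secreted phospholipase that acts on bacterial membranes, fell by 2.09 in SPI-E2 over SPI (SE 0.52, limma adjusted p 0.0134). It had 2.87, 1.46 and 2.32 FPKM in SPI-E2 libraries, against 29.4, 15.1 and 4.04 FPKM in SPI libraries, so the difference rested on SPI 1 and SPI 2. Without SPI 2 its adjusted p was 0.0520, and without SPI-E2 2 it was 0.0604. Ltf, lactoferrin, was at most 0.0568 FPKM in SPI-E2 libraries and 0.230 FPKM in CAS-E2 libraries, against at most 0.00577 FPKM in SPI libraries and 0 in CAS libraries. Camp, the cathelicidin, was at or under 0.380 FPKM in all libraries. Neither passed the filter, and lactoferrin was thus near 0 in the libraries where Lpo and Lcn2 were high.

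Among oxidant enzymes and their subunits, 4 of 10 rose and 1 fell in SPI-E2 over SPI, and 7 of 10 rose in CAS-E2 over CAS. Ncf4, the p40phox subunit of the phagocyte oxidase, had 4.17, 16.8 and 19.7 FPKM in SPI-E2 libraries, against 1.32, 1.05 and 1.504 FPKM in SPI libraries. It rose by 2.44 there and by 3.02 in CAS-E2 over CAS (SE 0.43, limma adjusted p 0.00262 and 0.000597). Cyba, the p22phox subunit that Nox enzymes share, rose by 1.52 in SPI-E2 over SPI and by 1.41 in CAS-E2 over CAS (SE 0.37). Without SPI-E2 2 the adjusted p of Cyba in SPI was 0.0582. Noxa1, the activator that works with Noxo1, was not named by rule but is given as its partner. It had 0.459, 4.29 and 1.98 FPKM in SPI-E2 libraries, against 0, 0.0894 and 0.264 FPKM in SPI libraries. All its vehicle libraries were under 1 FPKM, so Noxa1 passed the filter through the E2 libraries alone. Its levels are therefore given as a description. Nox1 itself is not analysed here.

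Slc26a4, an anion exchanger, rose by 1.94 in SPI-E2 over SPI and by 1.62 in CAS-E2 over CAS. Rac2, the GTPase of the phagocyte oxidase, rose by 1.93 in CAS-E2 over CAS. Of the other peroxidases, Mpo of neutrophil granules fell by 1.45 in SPI-E2 over SPI (SE 0.45, limma adjusted p 0.0332). It had 0.691, 0.117 and 0.662 FPKM in SPI-E2 libraries, against 5.40, 4.84 and 0.706 FPKM in SPI libraries, again through SPI 1 and SPI 2, and its adjusted p was 0.126 without SPI-E2 2 and 0.0692 without SPI-E2 3. The call of Mpo was also lost with a pseudocount of 0.1, without a filter and with array weights. No E2 library reached 1 FPKM, so Mpo passed the filter through vehicle libraries alone and its fall is a description. Epx, the peroxidase of eosinophils, was at or under 0.190 FPKM in every library. Of Lpo, Mpo and Epx, Lpo alone had a high level in the E2 uterus.

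Among sensors, cytokines and regulators, 3 of 18 rose and 2 fell in SPI-E2 over SPI, and 5 of 18 rose and 2 fell in CAS-E2 over CAS. Tlr2, a receptor for bacterial lipoproteins, had 2.99, 9.59 and 8.45 FPKM in SPI-E2 libraries, against 1.16, 1.10 and 0.605 FPKM in SPI libraries. It rose by 1.93 there and by 2.18 in CAS-E2 over CAS (SE 0.29). The vehicle libraries by themselves would not have carried Tlr2 past the filter, so its rise is a description. Il10rb, a chain of the receptors for IL-10 and IL-22, rose by 1.18 in SPI-E2 over SPI and by 1.22 in CAS-E2 over CAS, and the first fell under the fold cutoff without SPI-E2 3. Il1b, the cytokine interleukin 1 beta, rose by 1.79 in CAS-E2 over CAS. Cebpb, a transcription factor of the acute-phase response, rose by 1.17 in SPI-E2 over SPI, and by 0.83, under the fold cutoff, without SPI-E2 2. The cytokines Il17a and Il22, which raise Lcn2 and Reg3g in the mouse gut, were at 0 in all 12 libraries, and Il6 was at or under 0.130 FPKM. A value of 0 means that no read was found at this depth. Any part of these cytokines in the levels of Lcn2 and Reg3g was not tested.

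Of the receptors for lipocalin 2, Lrp2 fell in both diets and Slc22a17 in CAS. Lrp2, megalin, an endocytic receptor that takes up Lcn2, had 1.78, 0.135 and 0.172 FPKM in SPI-E2 libraries, against 5.16, 2.97 and 3.14 FPKM in SPI libraries. It had 0.0542, 0.115 and 0.319 FPKM in CAS-E2 libraries, against 7.11, 6.21 and 5.56 FPKM in CAS libraries. Its differences were -1.59 in SPI and -2.65 in CAS (SE 0.30), with adjusted p-values of 0.00376 and 0.000192 by limma. Slc22a17, another receptor for Lcn2, fell by 1.63 in CAS-E2 over CAS (SE 0.22, limma adjusted p 0.000442), with 3.92, 3.68 and 2.55 FPKM in CAS-E2 libraries, against 12, 11.9 and 13.4 FPKM in CAS libraries. In SPI-E2 minus SPI its difference was -0.77, under the fold cutoff. Il1r1, the interleukin 1 receptor, fell by 1.20 in SPI-E2 over SPI. Of 5 stromal markers tested, 4 fell in SPI-E2 over SPI and 1, Lum, in CAS-E2 over CAS. They summed to 183 to 485 FPKM in SPI-E2 libraries, against 532 to 639 FPKM in SPI libraries, and to 244 to 545 FPKM in CAS-E2 libraries, against 500.3 to 640 FPKM in CAS libraries. The part of the stroma in these falls was not tested.

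**Figure D4:**
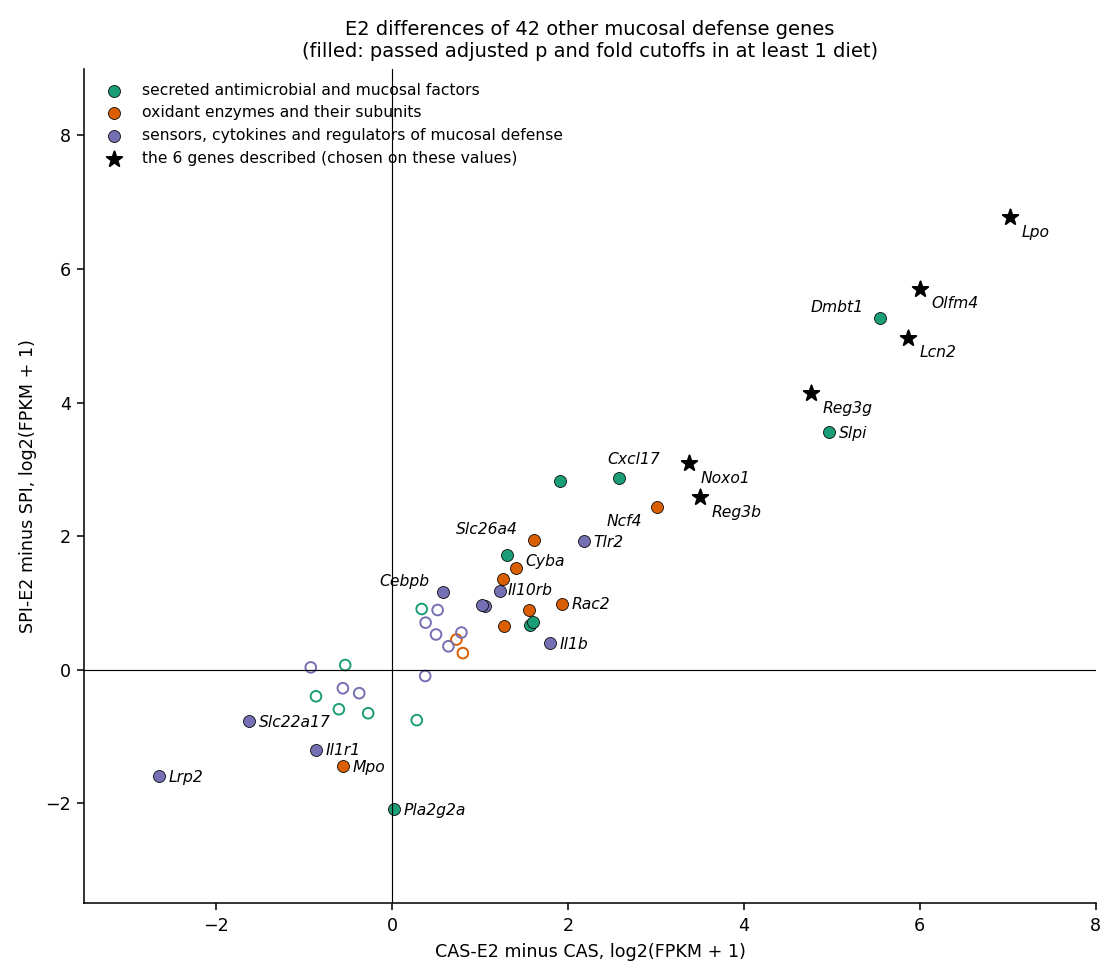
Difference in log2(FPKM + 1) in CAS-E2 minus CAS on the horizontal axis and in SPI-E2 minus SPI on the vertical axis for the 42 other defense genes tested, coloured by list and filled where called in at least 1 diet, with the 6 genes described as stars. Dmbt1, at 5.55 and 5.26, lies among the stars, and Lrp2, at -2.65 and -1.59, lies farthest to the lower left.

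Relatives of the 6 genes by protein family came from a list written with results of these data known, so their counts are descriptions. Of 13 that were tested, none rose and 3 fell in SPI-E2 over SPI, against 8.39% and 1.86% of all genes, and 1 rose and 3 fell in CAS-E2 over CAS, against 7.99% and 6.37%. Median differences were -0.72 and -0.56. The 3 that fell in SPI, Rbp4, Mpo and Olfml1, became 0 to 5 without each library in turn. Rbp4 and Mpo fell through SPI 1 and SPI 2, and Mpo passed the filter through vehicle libraries alone. No trend of the families under E2 is read from these counts. Of the olfactomedin-like genes, Olfml2a had 3.16, 2.76 and 1.80 FPKM in CAS-E2 libraries, against 9.57, 9.89 and 9.45 FPKM in CAS libraries, and fell by 1.59. Olfml2b fell by 1.21 in CAS-E2 over CAS, and Olfml1 fell by 1.14 in SPI-E2 over SPI and by 1.08 in CAS-E2 over CAS. Of the lipocalins, Rbp4, the retinol carrier, fell by 2.29 in SPI-E2 over SPI, where SPI-E2 libraries had 12.9, 6.60 and 15.1 FPKM, against 157, 75.3 and 15.6 FPKM in SPI libraries. The calls of Rbp4 and Olfml1 in SPI were lost without SPI 2, at adjusted p-values of 0.0637 and 0.0919, and without SPI-E2 2, at 0.0778 and 0.0966. Olfml1 also lost its call in SPI without SPI 1 (0.0585) or SPI-E2 3 (0.0944), and in CAS without CAS 1 (0.0525), CAS 2 (0.0669) or CAS-E2 3 (0.0674). Ncf1, the phagocyte counterpart of Noxo1, rose by 1.55 in CAS-E2 over CAS.

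The genes most like each of the 6 were found by the root mean square difference of their centred log2(FPKM + 1) values over the 12 libraries, among 10273 other genes. All 12 points share their groups and pools, so likeness is a description of level alone. Lpo was closest to Cuzd1, at 0.31, a secretory-granule gene of pancreas and uterus, then to Scgb1a1 at 0.55, a small secreted protein of airway and uterine epithelium, and to the matrix protease Mmp7 at 0.65. Cuzd1 averaged 486 FPKM in SPI-E2, 470 in CAS-E2, 2.66 in SPI and 2.54 in CAS. Olfm4 was closest to Dmbt1 at 0.36, to Oxt, the oxytocin gene, at 0.36 and to the mucus gene Fcgbp at 0.50. Lcn2 was closest to LOC363060 at 0.53, Oxt at 0.53 and Dmbt1 at 0.56.

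Reg3g was closest to Igfbp2 at 0.23, which binds insulin-like growth factors, to the apical membrane gene Prom1 at 0.28 and to Plac8 at 0.28. Reg3b was closest to Galnt3 at 0.26, which starts mucin-type glycosylation, to the fatty acid transporter Slc27a6 at 0.29 and to Crispld2 at 0.32. Noxo1 was closest to RGD1309676 at 0.19 and to Expi at 0.26. No gene among the 3 nearest was shared by Reg3b and Reg3g, while Dmbt1 and Oxt were near both Lcn2 and Olfm4.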

How the data were processed

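Uterine RNA of 12 libraries was sequenced as 36-bp single reads. The authors aligned the reads to rn4 with TopHat2 2.0.9 and Bowtie2 2.1.0 and estimated transcripts with Cufflinks 2.1.1. CASAVA 1.7 is also named in the processing notes of the submitters. As deposited by the authors, each transcript has an FPKM, normalized to library size and transcript length, and a coverage. FPKM of the transcripts of a symbol were summed. Cuffdiff, which needs the reads, was not repeated.

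All 4 groups entered a linear model of log2(FPKM + 1) in limma 3.58.1 (R 4.3.3) with its variance trend. The p-values were adjusted by Benjamini-Hochberg over 10279 genes, and the script was tested on simulated data. Plots were drawn with matplotlib 3.10.9, and tables with pandas 2.3.3 in Python 3.11.15. Coverage times length less 202.38 bases, over the read length, gave whole reads within 0.00014 for the 32 values under 60 reads of the 6 genes. Depth was 6353210 to 9862180 mapped reads, and counting error is given as exact 95% intervals.

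The 6 genes, the lists and the rule for genes named were chosen with earlier results of these data known. By that rule the text names, for each list, the 3 largest called rises and falls in each diet, and the 3 genes most like each of the 6 genes, of which 1 is not reported here. Other genes are named after their values were seen. What libraries with the same replicate number share is not stated in any source. Deviations of same-numbered libraries correlated at 0.117 to 0.336 between CAS-E2 and SPI-E2 and at -0.263 to 0.153 between other groups. These ranges overlap, so the correlations do not settle whether any groups are paired. The replicate block was put on all 4 groups. Alternatives were other pseudocounts, filters, scalings and fits, no fold cutoff, a replicate block, and each library left out in turn. Libraries of a group are pools of separate uteri.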

Additional observations from a re-analysis of the deposited data

How the results depend on the processing

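None of the 6 genes was called in SPI-E2 minus CAS-E2, SPI minus CAS or the interaction under any of the alternatives run, with limma adjusted p-values of 0.348 to 1, 0.313 to 1 and 0.105 to 0.998, and the count without each library in turn ran from 0 to 0. With replicate number as a block, the counts of defense genes called stayed at 19 higher and 2 lower in CAS-E2 over CAS and at 12 higher and 4 lower in SPI-E2 over SPI, and the block changed no call of a gene named. Without each library in turn, the 19 and 2 became 17 to 19 and 2 to 3, and the 12 and 4 became 10 to 16 and 2 to 5. The 2 lower in CAS-E2 became 4 with a pseudocount of 0.1 or of 0.5 and 5 without a fold cutoff. In SPI-E2 over SPI, 20 were higher without a fold cutoff and 2 were lower when only the groups compared were fitted. Another alternative, chosen after seeing the data, was scaling to the epithelial markers, whose mean itself rose with E2. On that scale 4 were higher and 18 lower in CAS-E2 and 2 higher and 28 lower in SPI-E2. That scaling turned Slc26a4 to -0.11 in CAS-E2 and -0.51 in SPI-E2, Il10rb to -0.27 and -0.97, and, in SPI-E2, Cyba to -0.96 and Cebpb to -1.18. Calls were lost on it for Tlr2 (0.17, adjusted p 0.527), Ncf4 (0.49, 0.115) and Cxcl17 (0.83, under the fold cutoff) in SPI-E2, and for Rac2 (0.45, 0.210), Ncf1 (0.11, 0.733), Tlr2 (0.99) and Il1b (0.81), the last pair by the fold cutoff, in CAS-E2. In SPI-E2, the fall of Mpo had limma adjusted p-values of 0.0690 with a pseudocount of 0.1, 0.0524 without a filter and 0.0584 with array weights, and with only the groups compared those of Pla2g2a, Rbp4 and Olfml1 were 0.0502, 0.0760 and 0.0851.

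Some diet differences changed sign without changing a call. In SPI-E2 minus CAS-E2, Lpo was -0.013 with median-ratio scaling, -0.11 scaled to the epithelial markers and -0.30 to 0.49 without each library. With array weights Noxo1 was 0.39, Lcn2 0.43, Reg3g 0.028 and Olfm4 0.12, and without each library they ran from -0.53 to 0.36, -1.10 to 0.22, -0.70 to 0.24 and -0.45 to 0.35. In SPI minus CAS, Lpo ran from -0.089 to 0.64 and Olfm4 from -0.0081 to 0.30 without each library. In the interaction, array weights gave 0.027 for Lpo and 0.31 for Noxo1, and leaving out libraries gave -0.62 to 0.21 for Lpo, -0.64 to 0.25 for Noxo1 and -0.59 to 0.22 for Olfm4. The cause of these turns was not tested. Median-ratio scaling set the median of all genes near 0, where it had been -0.16 in SPI minus CAS, 0.11 in SPI-E2 minus SPI and 0.21 in the interaction. With 0 to 8 reads a group, vehicle levels of Noxo1, Reg3b and Reg3g were limited by depth.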
